A study of Mus musculus with 6 samples.

Results

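The neurons described here are hypothalamic nuclei of vehicle-treated mice in a single-nucleus RNA-sequencing study of leptin resistance, set side by side between diet-induced obesity (DIO) and chow feeding. The DIO pool came from mice that the labels give as hfd (DIO), and the chow pool from chow-fed mice. In each pool, 1 hashtag marked nuclei of mice given vehicle and another those of mice given rapamycin, an inhibitor of the kinase complex mTORC1. A nucleus counted as vehicle when its vehicle tag stood at least 1 log2 unit above its rapamycin tag, after each tag had been centred on its pool. It counted as a neuron when it held at least 1 UMI (a counted RNA molecule) of Slc17a6, the vesicular glutamate transporter, or of Slc32a1, Gad1 and Gad2, the genes of GABA transport and synthesis. Nuclei with GABA genes and no Slc17a6 are called GABAergic below, and nuclei with Slc17a6 and no GABA gene glutamatergic. The members were thus chosen by their hashtag counts and by these 4 class genes. These rules gave 6177 nuclei of the 34542 in the series: 1670 DIO and 1878 chow GABAergic neurons, and 1237 DIO and 1392 chow glutamatergic neurons. Nuclei had been enriched by sorting for NeuN, a neuronal nuclear protein, before capture, and a further pool, from chow-fed ob/ob mice, is not compared here. The labels used here give no age, strain, number of mice, or length of diet or of treatment.

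Leptin, a hormone made by fat, reports energy stores to the hypothalamus. Its receptor Lepr acts through the kinase JAK2 and the transcription factor STAT3, and STAT3 induces Socs3, a protein that shuts the receptor down. In the arcuate nucleus, Pomc neurons restrain feeding and Agrp neurons promote it. In diet-induced obesity leptin is high while its effect on feeding is blunted, which is called leptin resistance.

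Each group is 1 hashtag in 1 pool, so there are no replicates and no value carries a test. UMIs were summed over the nuclei of a group and scaled to a total of 1000000 per group (counts per 1000000, CPM), and a log2 ratio is the CPM in DIO over the CPM in chow. The 95% intervals in brackets, exact Clopper-Pearson for ratios and shares, cover counting error alone and leave out variation between mice and between nuclei. Diet and pool cannot be told apart, because all DIO nuclei were captured in 1 pool and all chow nuclei in another. Values for rapamycin nuclei are given beside many of the vehicle ones, as a second set of nuclei from the same pools. These were 2138 DIO and 1739 chow GABAergic and 1490 DIO and 1297 chow glutamatergic neurons. In a sum, fewer expressing nuclei and less RNA per nucleus cannot be told apart. The DIO sums held 11164054 UMIs in GABAergic and 9408262 in glutamatergic neurons, and the chow sums 12115039 and 9758319. The median nucleus held 6022 UMIs in DIO and 5975 in chow among GABAergic neurons, and 6989 in DIO and 6469 in chow among glutamatergic neurons.

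The genes that chose the nuclei are given as a description. In GABAergic neurons, Gad1 stood at 157 CPM in DIO and 119 in chow, Gad2 at 239 and 231, and Slc32a1 at 20.9 and 31.0. In glutamatergic neurons, Slc17a6 stood at 232 CPM in DIO and 236 in chow. Classes rest on few UMIs, since 32.1% of DIO and 37.2% of chow GABAergic neurons, and 54.2% of DIO and 58.2% of chow glutamatergic neurons, held only 1 UMI of a class gene. Neurons with UMIs of both classes were left out, 256 in DIO and 269 in chow. Within 0.5 log2 units of the tag margin, 84 DIO and 195 chow nuclei lay just inside and 91 DIO and 134 chow nuclei just outside. The 2 pools shared 31 cell barcodes, 4 of them among these neurons. Rbfox3, which encodes NeuN, stood at 289 CPM in DIO and 176 in chow in GABAergic neurons and at 371 and 216 in glutamatergic neurons, log2 ratios of 0.71 and 0.78. Meg3, a noncoding RNA abundant in neurons, had ratios of -0.38 and -0.31. Rbfox3 and Meg3 were the highest and lowest of 6 neuronal markers, whose medians were 0.08 in GABAergic and 0.03 in glutamatergic neurons.

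Many genes differed between the pools by at least 0.32 log2 units. Of 12088 genes with at least 100 UMIs in GABAergic neurons, 13.7% were higher in DIO by at least 0.32 log2 units and 21.1% lower by at least as much, and 45.9% were higher at all. Of 11579 genes in glutamatergic neurons, 13.2% were higher and 21.6% lower by that margin, and 44.9% were higher at all. The median ratio was -0.03 in GABAergic and -0.04 in glutamatergic neurons. This margin of 0.32 log2 units is called the fold below. On counts simulated with counting error alone, 4.27 to 4.71% of unchanged genes passed it in either direction. Those counts held no variation between nuclei, mice or pools. The simulated share thus does not tell how many genes would pass without a difference in diet.

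The ratios followed gene length. With genes ordered by length in 10 equal groups, the shortest group had genomic spans of 0.435 to 5.91 kb in GABAergic neurons. Its median ratio was -0.47, and 11.7% of these genes were higher in DIO. In the longest group, 166 to 2390 kb, the median was 0.19, and 82.1% were higher. Glutamatergic neurons gave -0.46 and 0.20. In rapamycin nuclei of the same pools the gradient ran the same way but was shallower, at -0.25 and 0.10 in GABAergic and -0.24 and 0.08 in glutamatergic neurons. With each cluster of nuclei weighted alike in both pools, the vehicle values were -0.50 and 0.19 in GABAergic neurons, over the 23 of 35 clusters with enough nuclei. Genes higher by the fold had a median span of 68.9 kb in GABAergic neurons and genes lower by the fold 9.93 kb, beside 29.6 kb for all. Long genes hold long introns, and nuclei hold unspliced RNA. Whether diet or the handling of the pools goes with the gradient cannot be told apart. List medians below are therefore given also after the median of genes of like length was taken off, where their genes had matched spans. For a single gene of the shortest group, taking length off raises the ratio by the size of that group's median. For a gene of the longest group it lowers the ratio, by 0.19 in GABAergic and 0.20 in glutamatergic neurons. The low ratios of short genes and the high ratios of long genes named below are thus smaller on that scale.

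**Figure D1:**
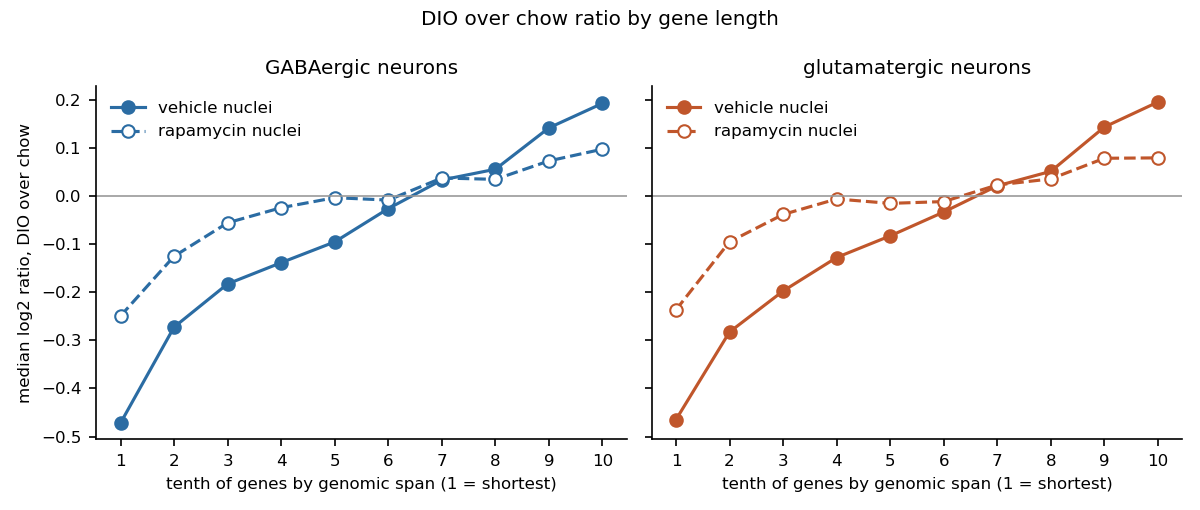
Median log2 ratio of DIO over chow (y axis) for genes split into 10 equal groups by genomic span (x axis, 1 the shortest), for vehicle nuclei (filled points, solid line) and rapamycin nuclei (open points, dashed line) of each class. Vehicle medians climb from -0.47 to 0.19 in GABAergic and from -0.46 to 0.20 in glutamatergic neurons, and the rapamycin lines are flatter.

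Genes of the cytosolic ribosome stood lowest of the lists. In GABAergic neurons 79 of 80 measured ribosomal protein genes were lower in DIO, 57 by the fold, against 21.1% of all genes, with a median of -0.48. In glutamatergic neurons 77 of 79 were lower, 63 by the fold, against 21.6% of all genes, with a median of -0.51. Rps21, a protein of the small subunit, stood at 19.9 CPM in DIO and 41.3 in chow in GABAergic neurons, a ratio of -1.05 (-1.29 to -0.82), and at 15.6 and 40.2 in glutamatergic neurons, -1.36 (-1.65 to -1.09). Rpl9, of the large subunit, had ratios of -0.66 and -0.78, and Rps6, the substrate phosphorylated downstream of mTORC1, -0.22 (-0.57 to 0.12) and -0.39 (-0.80 to 0.01). Ribosomal protein genes are short, with a median span of 3.15 kb, and with length taken off their medians were -0.03 and -0.06. Their direction is thus shared by other short genes in these pools. In rapamycin nuclei the medians were -0.26 and -0.33. Many of these genes have near-identical processed pseudogenes, so their counts are uncertain to that extent.

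Nuclear genes of oxidative phosphorylation, the respiratory chain, followed the same course. They were lower in 64 of 69 members in GABAergic neurons, 44 by the fold, beside 21.1% of all genes, with a median of -0.44, and in 60 of 68 in glutamatergic neurons, 38 by the fold, beside 21.6%, with a median of -0.35. Cox8a, a subunit of cytochrome oxidase, stood at 32.0 CPM in DIO and 58.8 in chow in GABAergic neurons and at 28.3 and 56.9 in glutamatergic neurons, ratios of -0.88 and -1.01. Length taken off, the medians were -0.15 and -0.03. In rapamycin nuclei they were -0.21 and -0.155. The mitochondrially encoded subunits of the same chain ran the other way, higher in 7 of 7 measured members in both classes. Of all genes, 45.9% and 44.9% were higher. The mitochondrial medians were 0.49 and 0.31, and none is given with length taken off, since only 1 of the 7 had a matched span. In rapamycin nuclei the mitochondrial median was -0.10 in GABAergic and 0.29 in glutamatergic neurons. Mitochondrial RNA in sorted nuclei is carried over from outside them, and the 13 genes together held 81.6 CPM in DIO and 64.1 in chow in GABAergic neurons. Proteasome genes were lower in 24 of 31 members in GABAergic and 26 of 31 in glutamatergic neurons. By the fold 8 and 12 were lower, beside 21.1% and 21.6% of all genes. The medians were -0.21 and -0.22, or -0.07 and 0.02 with length taken off. In rapamycin nuclei the proteasome medians were 0.01 and -0.08, with 15 and 22 of the 31 members lower. Glycolysis had medians of -0.20 and -0.19, or -0.06 and -0.07 with length taken off, and autophagy and lysosome genes of -0.16 and -0.17, or -0.08 and -0.07. In rapamycin nuclei glycolysis had -0.05 in both classes, and autophagy and lysosome genes 0.01 and -0.045.

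**Figure D2:**
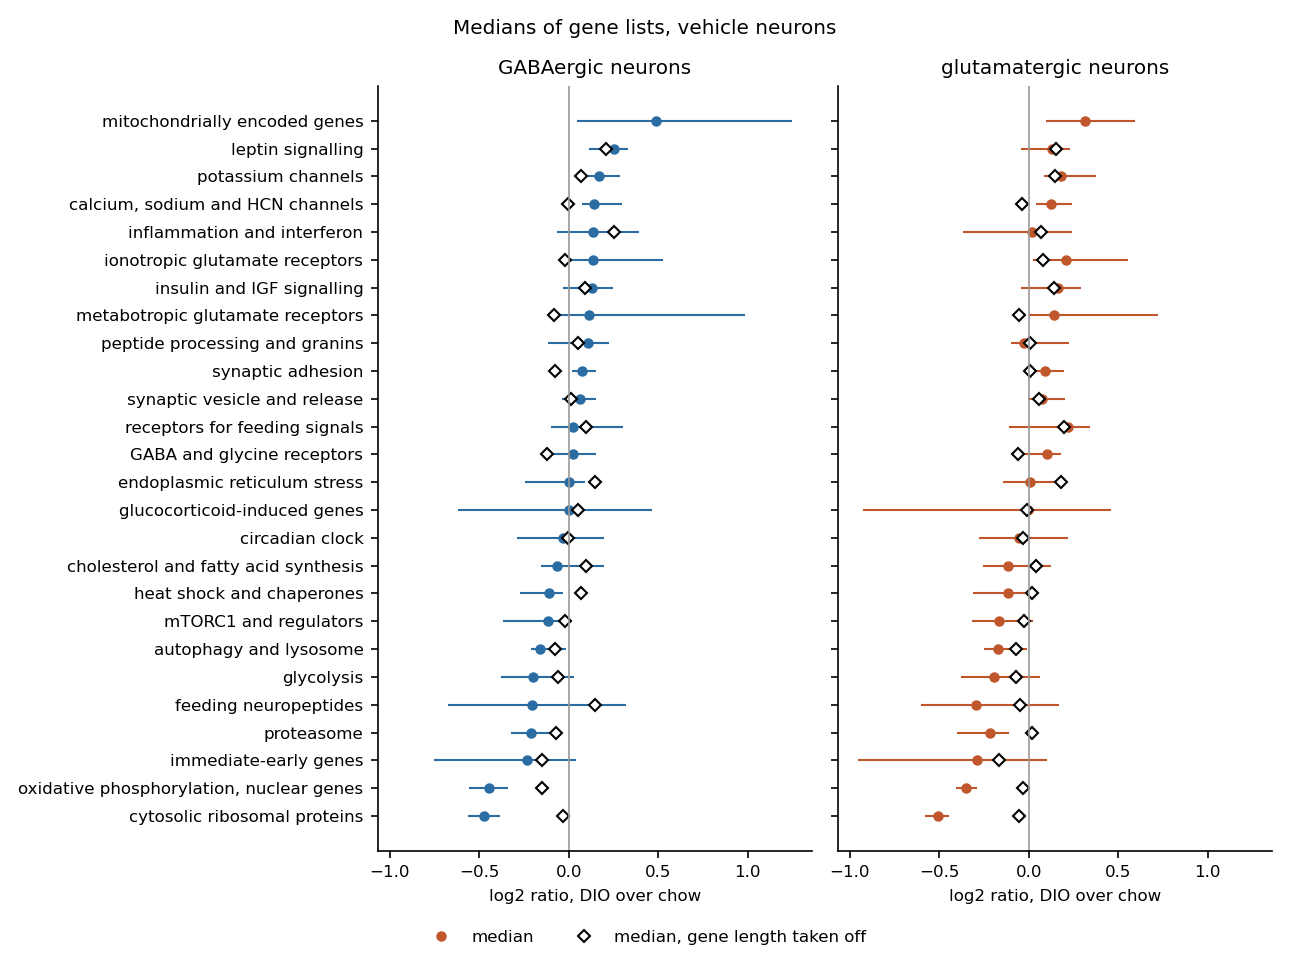
Median log2 ratio of DIO over chow (x axis) for each gene list with at least 6 measured genes in vehicle neurons, with bars for the 95% order-statistic interval, which shows the spread among genes, and open diamonds for the median with gene length taken off. Ribosomal and oxidative phosphorylation genes lie lowest, at -0.48 and -0.44 in GABAergic neurons, and their diamonds lie at -0.03 and -0.15, while the diamonds of leptin signalling lie at 0.21 in GABAergic and 0.15 in glutamatergic neurons.

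Most genes of leptin signalling stood higher in DIO in GABAergic neurons, and fewer in glutamatergic neurons, where the share past the fold was below that of all genes. In GABAergic neurons 13 of 15 measured members were higher, 4 by the fold, beside 45.9% and 13.7% of all genes, with a median of 0.26 (0.12 to 0.33 over genes), or 0.16 at equal cluster weights. In glutamatergic neurons 10 of 15 were higher, 1 by the fold, beside 44.9% and 13.2%, with a median of 0.13 (-0.04 to 0.23 over genes). With length taken off the medians were 0.21 and 0.15, and in rapamycin nuclei 0.19 and 0.10. The members are listed here by their place in the pathway.

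Lepr (ENSMUSG00000057722, GRCm38.p6 chr4:101717137-101815352), the receptor, stood at 38.4 CPM in DIO and 23.8 in chow in GABAergic neurons, on 429 and 288 UMIs, a ratio of 0.69 (0.47 to 0.91). In glutamatergic neurons it stood at 27.4 and 23.3 CPM, 0.24 (-0.03 to 0.50). Lepr UMIs were found in 12.3% (10.7 to 13.9) of DIO and 9.32% (8.04 to 10.7) of chow GABAergic neurons, and in 8.63% and 4.93% after each nucleus was thinned to 3000 UMIs, which left out 70 DIO and 73 chow nuclei. In glutamatergic neurons the shares were 12.7% in DIO and 11.4% in chow, but 5.27% and 6.21% at 3000 UMIs per nucleus, the other way round. The ratio of Lepr in GABAergic neurons was 0.05 with each cluster weighted alike in both pools, and Lepr was higher in 3 of 5 clusters with enough UMIs. With the mix of clusters held equal, the GABAergic difference was thus near 0. In rapamycin nuclei the ratio was 0.29 in GABAergic and 0.49 in glutamatergic neurons. As a background, nuclei with at least 10 UMIs of oligodendrocyte markers and no class gene held Lepr in 0 of 19 in DIO and 0 of 50 in chow, which by a floor of 3 counts allows shares of up to 15.8% and 6.0%, and by the exact interval of up to 17.6% and 7.11%. These nuclei were shallower, with medians of 1525 UMIs in DIO and 2479.5 in chow.

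Stat3 (ENSMUSG00000004040, chr11:100886806-100939594), the transcription factor that carries the leptin signal to the nucleus, was higher in both classes. It stood at 66.5 CPM in DIO and 42.8 in chow in GABAergic neurons, 0.64 (0.47 to 0.80), and at 54.1 and 37.4 CPM in glutamatergic neurons, 0.53 (0.34 to 0.73). Unlike Lepr, Stat3 kept this difference with equal cluster weights, at 0.55 and 0.56, and was higher in 17 of 19 GABAergic and 10 of 13 glutamatergic clusters. In rapamycin nuclei the ratios were 0.40 and 0.44. Stat3 UMIs were found in 29.3% (27.2 to 31.6) of DIO and 20.8% (19.0 to 22.7) of chow GABAergic neurons, or 16.4% and 11.4% at 3000 UMIs per nucleus. In glutamatergic neurons the shares were 27.6% and 21.2%, or 13.8% and 10.9% at 3000 UMIs. The oligodendrocyte-marker nuclei held it in 10.5% in DIO and 10.0% in chow.

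Socs3 (ENSMUSG00000053113, chr11:117966079-117970336), the feedback inhibitor, is scarce in these nuclei and did not reach 100 UMIs. It had 29 UMIs in DIO and 11 in chow GABAergic neurons, 1.52 (0.47 to 2.67), and 13 and 5 in glutamatergic neurons, 1.43 (-0.15 to 3.27). It was seen in 1.62% of DIO and 0.532% of chow GABAergic neurons. In rapamycin nuclei the GABAergic ratio was 0.17. STAT proteins bind the letters TTCNNNGAA, and the promoter of Socs3 is shown because it holds such a match, 154 bases before the start that RefSeq's promoter table uses. The 250 bases before that start (GRCm38.p6, chr11:117969367-117969616, minus strand) are given 5′ to 3′ with the match in capitals.
Socs3: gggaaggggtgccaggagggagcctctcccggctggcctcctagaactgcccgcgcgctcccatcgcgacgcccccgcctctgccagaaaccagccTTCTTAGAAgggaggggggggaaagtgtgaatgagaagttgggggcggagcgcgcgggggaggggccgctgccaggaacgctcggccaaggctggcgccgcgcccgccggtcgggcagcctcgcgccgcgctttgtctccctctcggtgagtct
A match to these letters, read on both strands, is found in 8.30% of the 32851 promoters of 300 bases in that table.

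Among the kinases and adaptors, Jak2, the kinase bound to the receptor, had ratios of 0.26 (0.11 to 0.41) in GABAergic and 0.13 (-0.04 to 0.30) in glutamatergic neurons. Stat5b, a further STAT, had 0.19 and 0.23. Irs4, an insulin receptor substrate found in the hypothalamus, had 0.45 (0.12 to 0.78) and 0.29 (-0.22 to 0.81), and Irs2 0.26 and 0.15. Pik3ca, the catalytic subunit of PI3 kinase, had 0.17 and 0.20. Asb4, a gene of arcuate neurons, stood at 43.2 CPM in DIO and 34.3 in chow in GABAergic neurons, 0.33, but at -0.08 with equal cluster weights, and had -0.03 in glutamatergic neurons. Of the phosphatases that act against the pathway, Ptpn1 (PTP1B) had -0.19 (-0.31 to -0.07) and -0.11 (-0.25 to 0.02), while Ptpn2 had 0.28 and 0.04.

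**Figure D3:**
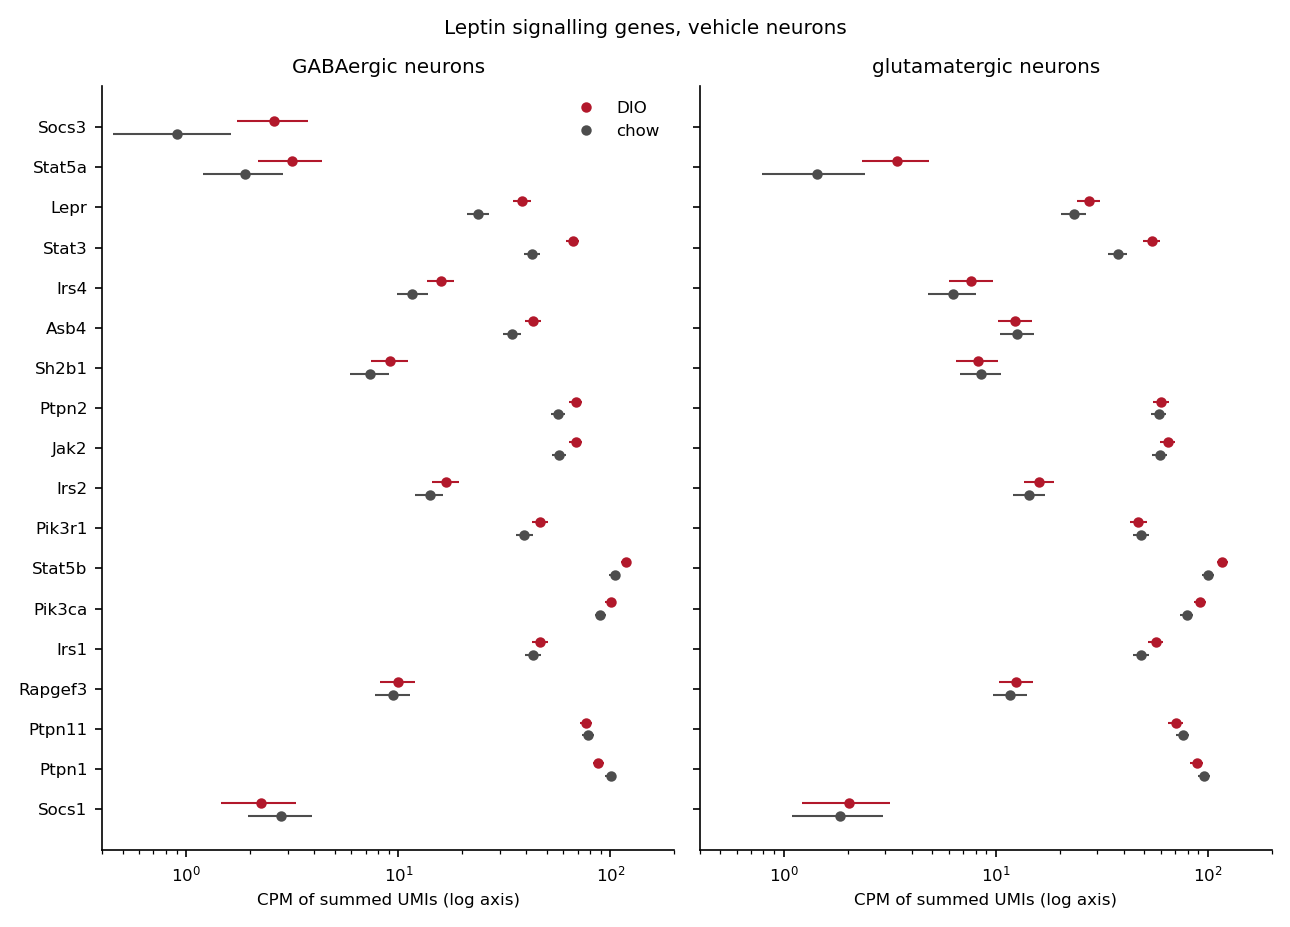
Level of leptin signalling genes in CPM (log x axis) in DIO (red, upper point of each pair) and chow (grey, lower point) vehicle neurons, with exact Poisson 95% intervals for counting error; genes with under 30 UMIs in a class have no point there. The intervals of Stat3 lie apart in both classes, at 66.5 and 42.8 CPM in GABAergic and 54.1 and 37.4 CPM in glutamatergic neurons.

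Insulin and IGF signalling genes were higher in 14 of 20 members in each class, 3 by the fold in GABAergic and 5 in glutamatergic neurons, beside 13.7% and 13.2% of all genes. The GABAergic share past the fold is near that of all genes. The medians were 0.13 (-0.03 to 0.25 over genes) and 0.16 (-0.04 to 0.29), and 0.09 and 0.14 with length taken off. In rapamycin nuclei they were -0.03 and 0.02, with 10 and 11 of the 20 members higher. The receptors were both higher. Insr, the insulin receptor, stood at 139 CPM in DIO and 117 in chow in GABAergic neurons, 0.25, and at 135 and 106 in glutamatergic neurons, 0.35. Igf1r, the IGF-1 receptor, had 0.37 and 0.44. In rapamycin nuclei these ratios were 0.07 and 0.11 for Insr and 0.08 and 0.05 for Igf1r. Foxo3, a transcription factor held out of the nucleus by insulin signalling, stood at 40.3 CPM in DIO and 29.3 in chow in GABAergic neurons, 0.46 (0.26 to 0.66), and at 36.2 and 22.0 in glutamatergic neurons, 0.72 (0.47 to 0.97). Foxo1, its relative, had 0.03 (-0.29 to 0.36) and 0.19 (-0.26 to 0.63), within counting error.

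The mTORC1 list held members on both sides. Its medians were -0.12 in GABAergic and -0.17 in glutamatergic neurons, and -0.02 and -0.03 with length taken off. In rapamycin nuclei they were -0.05 and -0.02. Members higher were 10 of 33 and 11 of 33, beside 45.9% and 44.9% of all genes. Higher were the long genes of the complex itself, Mtor, the kinase, at 0.36 and 0.16, Rptor, which recruits substrates, at 0.41 and 0.50, and Deptor, an inhibitory subunit, at 0.58 and 0.39. Tfeb, the lysosomal transcription factor restrained by mTORC1, had 0.84 and 0.40. In glutamatergic neurons the intervals of Mtor and Tfeb reached 0. Lower were short genes of the lysosomal anchor, such as Lamtor4 at -0.79 and -0.67, Lamtor5 at -0.69 and -0.67, and the GTPase Rraga at -0.84 and -1.18.

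In glutamatergic neurons 14 of 19 measured receptors for feeding signals were higher, 5 by the fold, beside 44.9% and 13.2% of all genes. Their median was 0.22, or 0.20 with length taken off. In GABAergic neurons 10 of 20 were higher, near the 45.9% of all genes, and 5 by the fold, beside 13.7%. The median there was 0.03, or 0.10 with length taken off. Adcyap1r1, the receptor of the peptide PACAP, stood at 49.4 CPM in DIO and 31.2 in chow in GABAergic neurons, 0.66 (0.47 to 0.86), and at 39.6 and 28.9 in glutamatergic neurons, 0.46 (0.23 to 0.68). It was higher in 18 of 18 GABAergic and 11 of 11 glutamatergic clusters. Ntrk2, the receptor of BDNF, stood at 459 CPM in DIO and 344 in chow in GABAergic neurons and at 408 and 302 in glutamatergic neurons, ratios of 0.42 and 0.43, and was higher in every one of the 23 GABAergic and 19 glutamatergic clusters. Crhr1, a receptor of corticotropin-releasing hormone, had 0.41 (0.07 to 0.74) in GABAergic and 0.41 (-0.04 to 0.86) in glutamatergic neurons. Npy5r, an NPY receptor that promotes feeding, was lower, at 15.7 CPM in DIO and 22.5 in chow in GABAergic neurons, -0.52 (-0.80 to -0.24), and -0.46 (-0.86 to -0.06) in glutamatergic neurons, but had -0.14 and 0.27 in rapamycin nuclei. Calcr, the calcitonin receptor through which amylin acts, had -0.38 (-0.63 to -0.14) and -0.13 (-0.41 to 0.14).

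Neuropeptide RNA was scarce in these nuclei, and of 36 peptide genes 14 reached 100 UMIs in GABAergic and 10 in glutamatergic neurons. In GABAergic neurons 8 of the 14 were lower in DIO and 6 higher, beside 45.9% of all genes higher, and 6 were lower by the fold, beside 21.1%, with a median of -0.20, and in glutamatergic neurons 7 of 10 were lower, 5 by the fold, beside 21.6%, with a median of -0.30. Most peptide genes are short, and with length taken off the medians were 0.14 and -0.05. In rapamycin nuclei they were -0.02 and -0.04. The genes are taken here with those that promote feeding before those that restrain it.

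Agrp, the melanocortin antagonist of the feeding neurons, was level, at 57.8 CPM in DIO and 56.6 in chow in GABAergic neurons, 0.03 (-0.13 to 0.19), and at 52.2 and 46.4 in glutamatergic neurons, 0.17 (-0.02 to 0.36). Its UMIs were spread over 28.8% of DIO and 27.4% of chow GABAergic neurons and over 31.1% of DIO and 26.4% of chow glutamatergic neurons. Agrp neurons are GABAergic, yet the share was about as large in glutamatergic neurons, and the oligodendrocyte-marker nuclei held Agrp in 0 of 19 in DIO and 4 of 50 in chow. Where these UMIs come from was not tested. Npy, made by the same neurons, had 15 UMIs in DIO and 39 in chow GABAergic neurons, -1.26 (-2.23 to -0.37), and -1.72 in rapamycin nuclei. Hcrt (orexin), a wakefulness and feeding peptide of the lateral hypothalamus, had 181 UMIs in DIO and 118 in chow glutamatergic neurons, 0.67 (0.33 to 1.02), but -0.51 with equal cluster weights and -0.71 in rapamycin nuclei. Pmch, the melanin-concentrating hormone gene, had 0.06 (-0.18 to 0.30) in GABAergic and -0.60 (-1.08 to -0.13) in glutamatergic neurons, and Gal, the galanin gene, -0.67 (-1.22 to -0.14) in GABAergic neurons.

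Pomc, the melanocortin precursor, stood at 19.9 CPM in DIO and 15.9 in chow in GABAergic neurons, 0.32 (0.04 to 0.61), and at 10.9 and 9.94 in glutamatergic neurons, 0.14 (-0.28 to 0.55). In rapamycin nuclei its ratios were 1.01 and 1.89. Cartpt, a peptide that restrains feeding, stood at 27.7 CPM in DIO and 16.8 in chow in GABAergic neurons, 0.72 (0.46 to 0.99), but at 0.05 with equal cluster weights, and at 14.0 and 17.9 in glutamatergic neurons, -0.35 (-0.69 to -0.02). Nts, the neurotensin gene, had 126 UMIs in DIO and 59 in chow GABAergic neurons, 1.21 (0.76 to 1.68), with 1.02 under equal cluster weights and 0.64 in rapamycin nuclei. The shares of GABAergic neurons with Nts lay closer, at 2.8% (2.1 to 3.7) in DIO and 2.0% (1.4 to 2.7) in chow. At 3000 UMIs per nucleus they were 1.6% and 1.1%. In glutamatergic neurons the shares were 1.1% in DIO and 1.5% in chow. The oligodendrocyte-marker nuclei held Nts in 1 of 19 in DIO and 1 of 50 in chow. Oxt, the oxytocin gene of the paraventricular nucleus, had 68 UMIs in DIO and 158 in chow glutamatergic neurons, -1.16 (-1.60 to -0.74), and -0.91 in rapamycin nuclei. Without nuclei that hold 2 or more UMIs of markers of other cell types the Oxt ratio was 1.01, so its direction rests on which nuclei were kept. That filter kept 437 of 1237 DIO and 607 of 1392 chow glutamatergic neurons. Avp, the vasopressin gene, had -0.39 (-0.81 to 0.02) and -0.44 (-0.71 to -0.18), and Tac1, the substance P gene, -0.42 (-0.85 to 0.01) and -0.40 (-0.72 to -0.08).

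Sst (ENSMUSG00000004366, chr16:23889573-23891342) is the gene of somatostatin, an inhibitory peptide. Among genes measured in GABAergic neurons, gene models with numbered names left out, it had the lowest ratio. It had 36 UMIs in DIO and 125 in chow, 3.22 and 10.3 CPM, a ratio of -1.68 (-2.26 to -1.13). In glutamatergic neurons it had 13 and 44 UMIs, -1.71 (-2.72 to -0.79). It was seen in 1.92% (1.31 to 2.69) of DIO and 4.15% (3.30 to 5.16) of chow GABAergic neurons, and in 0.875% and 2.49% at 3000 UMIs per nucleus. The ratio was -1.54 with equal cluster weights and -1.21 with length taken off, and Sst was lower in 3 of 3 clusters with enough UMIs. In rapamycin nuclei it was -0.72 in GABAergic and -1.02 in glutamatergic neurons. The oligodendrocyte-marker nuclei held Sst in 0 of 19 in DIO and 0 of 50 in chow.

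**Figure D4:**
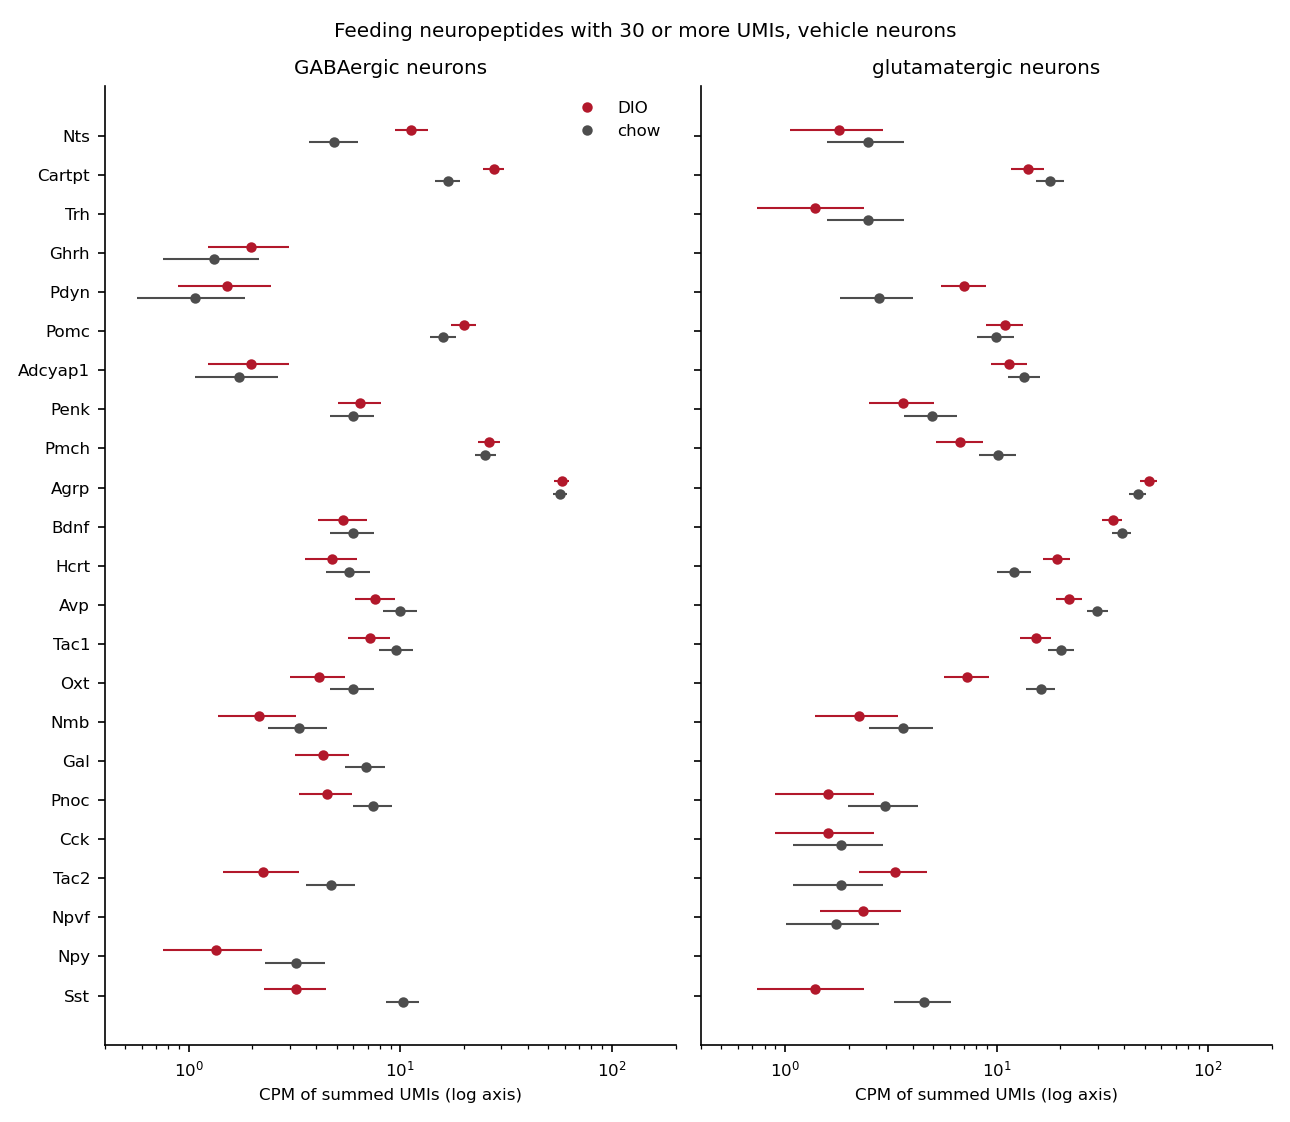
Level of feeding neuropeptide genes in CPM (log x axis) in DIO (red, upper point of each pair) and chow (grey, lower point) vehicle neurons, with exact Poisson 95% intervals for counting error; genes with under 30 UMIs in a class have no point there. Agrp lies level at 57.8 and 56.6 CPM in GABAergic neurons, Nts and Cartpt lie higher and Sst lies lower in DIO.

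Of the enzymes that cut peptide precursors, Pcsk1, the convertase that begins Pomc cleavage, stood at 31.4 CPM in DIO and 23.6 in chow in GABAergic neurons, 0.41 (0.18 to 0.64), and at 62.9 and 50.6 in glutamatergic neurons, 0.31 (0.14 to 0.49), but had 0.06 and -0.01 in rapamycin nuclei. Pcsk1n, which encodes proSAAS, an inhibitor of that convertase, ran the other way. It stood at 35.1 CPM in DIO and 55.8 in chow in GABAergic neurons, -0.67 (-0.85 to -0.49), and at 31.8 and 58.1 in glutamatergic neurons, -0.87 (-1.08 to -0.67). With length taken off the ratios were -0.20 and -0.41. Pcsk1n was higher in 1 of 18 and 0 of 17 clusters, and its ratio in rapamycin nuclei was -0.11 in both classes. Pcsk2, which acts after Pcsk1, had 0.16 and 0.23, and Cpe, which trims the cut ends, 0.23 and 0.20. Scg2, a granin of secretory vesicles, had -0.42 and -0.47, or 0.06 and -0.01 with length taken off. Vgf, a granin-like precursor of peptides that act on energy balance, had 0.60 (0.22 to 0.99) and 0.14 (-0.37 to 0.65). Over the 15 genes of peptide processing the medians were 0.11 and -0.03, or 0.06 and 0.01 with length taken off.

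The promoters of Sst, Cartpt, Pcsk1 and Btg2 are shown because each holds the full cAMP response element TGACGTCA, the site of CREB, which links neuronal activity to transcription. The element begins 48 bases before the start in Sst, 112 in Cartpt, 78 in Pcsk1 and 166 in Btg2, by RefSeq's promoter table for GRCm38.p6. Each sequence is the 250 bases before the start, 5′ to 3′, with the element in capitals, from chr16:23890845-23891094 (minus strand), chr13:99900684-99900933 (minus strand), chr13:75089607-75089856 (plus strand) and chr1:134079156-134079405 (minus strand).
Sst: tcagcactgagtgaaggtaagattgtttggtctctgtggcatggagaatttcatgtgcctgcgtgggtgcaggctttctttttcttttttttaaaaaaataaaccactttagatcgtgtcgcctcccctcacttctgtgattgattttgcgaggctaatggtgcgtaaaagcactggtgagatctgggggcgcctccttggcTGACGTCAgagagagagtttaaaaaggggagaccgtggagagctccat
Cartpt: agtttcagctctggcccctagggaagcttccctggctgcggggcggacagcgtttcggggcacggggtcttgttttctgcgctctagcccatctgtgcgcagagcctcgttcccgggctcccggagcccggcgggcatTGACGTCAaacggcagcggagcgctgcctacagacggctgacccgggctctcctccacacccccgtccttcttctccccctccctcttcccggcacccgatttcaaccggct
Pcsk1: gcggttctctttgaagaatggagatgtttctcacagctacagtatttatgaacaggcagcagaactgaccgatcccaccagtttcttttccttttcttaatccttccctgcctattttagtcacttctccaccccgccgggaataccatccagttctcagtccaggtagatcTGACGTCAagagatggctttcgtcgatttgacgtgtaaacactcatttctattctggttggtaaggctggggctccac
Btg2: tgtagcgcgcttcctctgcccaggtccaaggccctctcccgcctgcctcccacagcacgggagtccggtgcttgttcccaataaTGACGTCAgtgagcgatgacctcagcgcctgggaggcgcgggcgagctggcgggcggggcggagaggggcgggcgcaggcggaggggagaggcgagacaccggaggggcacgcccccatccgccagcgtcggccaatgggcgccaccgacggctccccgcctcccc
The annotated spans of Sst and Socs3 reach past the starts used by the table. The same letters stand in genes that went different ways, with GABAergic ratios of -1.68 for Sst, 0.72 for Cartpt, 0.41 for Pcsk1 and -1.08 for Btg2. The element is present in 1.79% of the 32851 promoters, 588 in all. Measured genes with it numbered 342 in GABAergic neurons, with a median of -0.12 beside -0.04 for all genes with a promoter in the table, and 332 in glutamatergic neurons, with -0.16 beside -0.05. With length taken off the medians were -0.04 and -0.05.

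Immediate-early genes, which neurons switch on within minutes of firing, were lower in 7 of 9 measured members in GABAergic and 7 of 10 in glutamatergic neurons, 4 by the fold in each, beside 21.1% and 21.6% of all genes. The medians were -0.23 (-0.75 to 0.04 over genes) and -0.29 (-0.96 to 0.10), and -0.15 and -0.16 with length taken off. In rapamycin nuclei all 9 and all 10 members were lower, with medians of -0.65 and -0.55. For Fos and Npas4, the genes most used to mark active neurons, the intervals spanned 0. Fos had 44 UMIs in DIO and 56 in chow GABAergic neurons, -0.23 (-0.83 to 0.37), and 64 and 57 in glutamatergic neurons, 0.22 (-0.32 to 0.76). Npas4, which responds to calcium entry, had 0.23 (-0.24 to 0.70) and 0.10 (-0.35 to 0.56). Lower were Jun at -0.66 and -0.95, Junb at -0.75 and -0.97 and Jund at -0.62 and -0.71, the AP-1 partners of Fos, and with length taken off these were -0.19 and -0.48, -0.28 and -0.50, and -0.15 and -0.25. Egr1, a zinc finger factor, had 35 UMIs in DIO and 62 in chow GABAergic neurons, -0.71, and 45 and 46 in glutamatergic neurons, 0.02. Btg2 (ENSMUSG00000020423, chr1:134074865-134079155), an antiproliferative early gene, stood at 6.90 CPM in DIO and 14.6 in chow in GABAergic neurons, -1.08 (-1.49 to -0.69), and at 9.88 and 19.2 in glutamatergic neurons, -0.95 (-1.33 to -0.59). Btg2 remained at -0.61 and -0.49 with length taken off. In rapamycin nuclei Fos stood at 1.74 CPM in DIO and 8.71 in chow in GABAergic neurons, -2.32, and had -2.55 in glutamatergic neurons, while Btg2 had -0.91 and -1.06, near its vehicle values.

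Most measured genes of ionotropic glutamate receptors and of ion channels stood higher. Of 16 ionotropic glutamate receptor subunits, 12 were higher in GABAergic neurons, 7 by the fold, beside 45.9% and 13.7% of all genes. In glutamatergic neurons 13 were higher, 6 by the fold, beside 44.9% and 13.2%, and the classes had medians of 0.14 and 0.21. With length taken off the medians were -0.02 and 0.08, since these genes have a median span of 349 kb. In rapamycin nuclei the medians were 0.08 and 0.02, with 10 and 8 of the 16 higher. Of the subunits of the AMPA receptor, the main fast glutamate receptor, Gria1 and Gria2 went opposite ways, while Gria4 had -0.04 and 0.04. Gria1 (ENSMUSG00000020524, chr11:57011571-57330244) stood at 929 CPM in DIO and 646 in chow in GABAergic neurons, 0.52 (0.48 to 0.57), and at 997 and 632 in glutamatergic neurons, 0.66 (0.61 to 0.70). Gria2, the subunit that makes the receptor impermeable to calcium, stood at 900 CPM in DIO and 1186 in chow in GABAergic neurons, -0.40 (-0.44 to -0.36), and had -0.34 (-0.38 to -0.30) in glutamatergic neurons. Gria1 was higher in 23 of 23 GABAergic and 18 of 19 glutamatergic clusters, and Gria2 in 1 of 23 and 0 of 19. In rapamycin nuclei Gria1 had 0.37 and 0.41 and Gria2 -0.28 in both classes. With length taken off Gria1 had 0.33 and 0.46 and Gria2 -0.54 and -0.49.

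Of the other subunits, the kainate receptor genes Grik3 at 0.71 and 0.55 and Grik4 at 0.54 and 0.42, the delta receptor gene Grid1 at 0.52 and 0.58, and the NMDA receptor gene Grin2a at 0.43 and 0.53 were higher in both classes. Grin1, the obligate NMDA subunit, had -0.15 and -0.05. Grm4, a metabotropic receptor that restrains release, had 144 UMIs in DIO and 79 in chow GABAergic neurons, 0.98 (0.58 to 1.40), and 0.72 (0.43 to 1.02) in glutamatergic neurons. The 18 GABA and glycine receptor genes had medians of 0.02 and 0.10, or -0.12 and -0.06 with length taken off. Gabbr2, the signalling subunit of the GABA-B receptor, stood apart at 257 CPM in DIO and 172 in chow in GABAergic neurons, 0.58, and 310 and 200 in glutamatergic neurons, 0.63, higher in every one of 23 and 19 clusters, while its partner Gabbr1 had 0.05 and 0.15.

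All 3 genes of the low-voltage-activated (T-type) calcium channels, which shape burst firing, were higher. Cacna1g stood at 58.0 CPM in DIO and 38.3 in chow in GABAergic neurons and at 62.8 and 42.5 in glutamatergic neurons, ratios of 0.60 (0.43 to 0.77) and 0.56 (0.38 to 0.75). Cacna1h had 0.65 in both classes, and Cacna1i 0.51 and 0.58. These 3 had ratios of 0.43 to 0.72 in rapamycin nuclei and 0.37 to 0.63 with length taken off. Cacna1c, of the L-type channel, stood at 674 CPM in DIO and 437 in chow in GABAergic neurons, 0.62 (0.57 to 0.68), and had 0.69 (0.64 to 0.75) in glutamatergic neurons. The auxiliary sodium channel subunit genes Scn2b, at -0.47 and -0.38, and Scn3b, at -0.30 and -0.43, were lower, while the pore gene Scn1a had 0.07 and 0.06. Over the whole list of calcium, sodium and HCN channels, 23 of 29 members were higher in GABAergic and 21 of 28 in glutamatergic neurons. Of all genes, 45.9% and 44.9% were higher. By the fold 8 were higher in each class, beside 13.7% and 13.2% of all genes. The medians were 0.14 and 0.12, or -0.00 and -0.04 with length taken off.

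**Figure D5:**
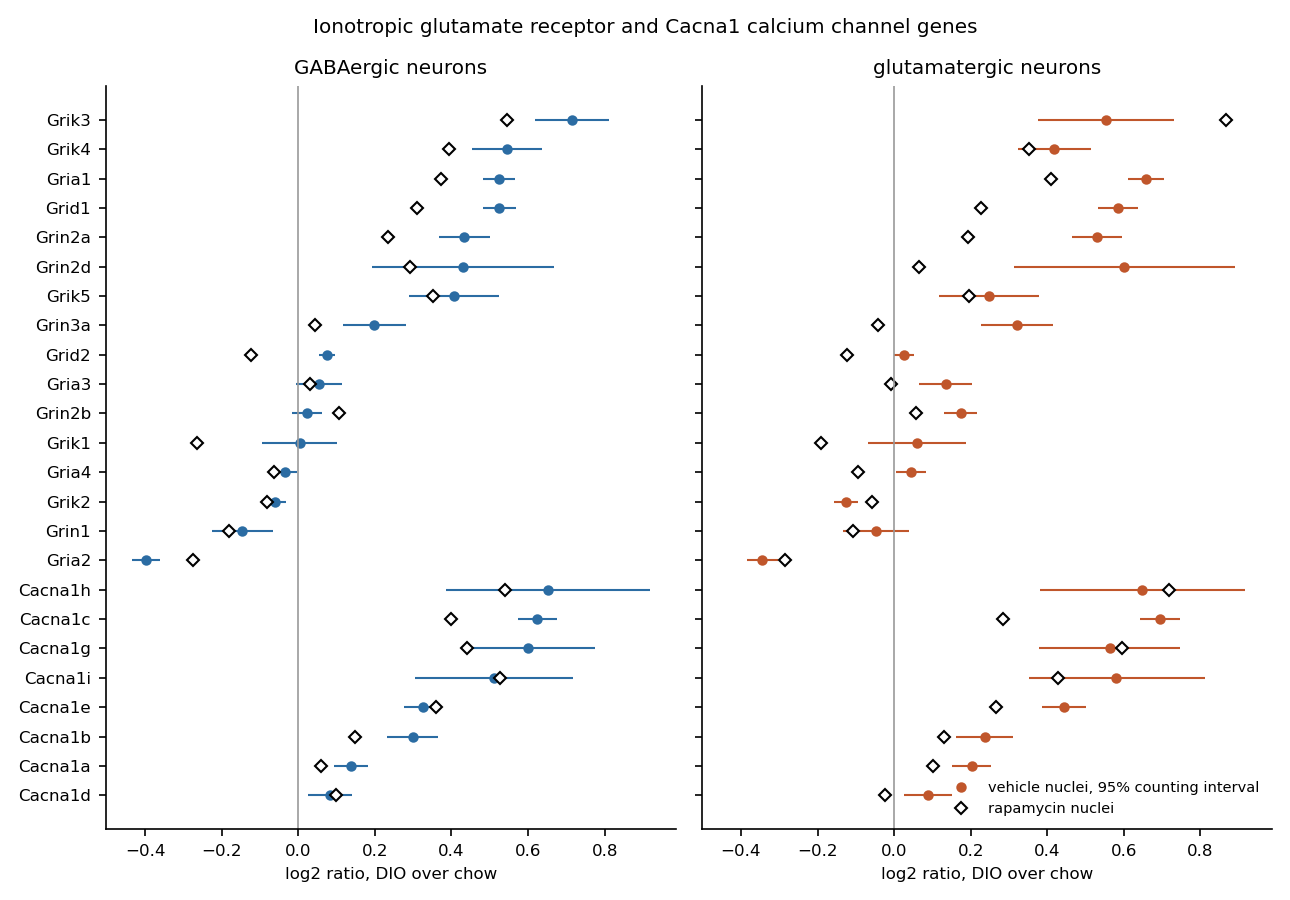
Log2 ratio of DIO over chow (x axis) for ionotropic glutamate receptor genes and the pore genes of voltage-gated calcium channels, with filled points and bars for vehicle nuclei and their 95% counting intervals and open diamonds for rapamycin nuclei. Gria1 lies at 0.52 and 0.66 and Gria2 at -0.40 and -0.34, and the T-type genes Cacna1g, Cacna1h and Cacna1i lie between 0.51 and 0.65.

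Potassium channel genes, which set resting potential and repolarisation, were higher in 24 of 34 members in GABAergic neurons, 10 by the fold, beside 13.7% of all genes, and in 26 of 34 in glutamatergic neurons, 11 by the fold, beside 13.2%. The medians were 0.17 and 0.18, or 0.07 and 0.15 with length taken off. Kcnn3, a calcium-activated channel of small conductance, stood at 89.0 CPM in DIO and 58.7 in chow in GABAergic neurons, 0.60 (0.46 to 0.74), and had 0.62 (0.47 to 0.76) in glutamatergic neurons. Kcnd3, of the transient A-type current, had 0.44 and 0.78. Kcna6, a delayed rectifier on a gene of only 32.5 kb, had 0.56 (0.35 to 0.77) and 0.63 (0.40 to 0.86). Kcna4 was lower in glutamatergic neurons, at -0.47 (-0.73 to -0.21), with -0.22 (-0.48 to 0.03) in GABAergic neurons.

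Some single genes stood far out in both classes. Ppp2r2c (ENSMUSG00000029120, chr5:36866846-36955078), a brain regulatory subunit of protein phosphatase 2A, stood at 104 CPM in DIO and 51.0 in chow in GABAergic neurons, 1.03 (0.88 to 1.17), and at 104 and 51.9 in glutamatergic neurons (interval 0.85 to 1.16). It was higher in 21 of 22 and 19 of 19 clusters and had 0.80 and 0.87 in rapamycin nuclei. Zdhhc14, a palmitoyltransferase, had 0.86 and 0.91, and Rai1, a transcriptional regulator whose loss in people causes Smith-Magenis syndrome, often with obesity, 0.81 and 0.89, higher in all 23 and 19 clusters. Ccnd2 (ENSMUSG00000000184, chr6:127125162-127152188), cyclin D2, stood at 7.43 CPM in DIO and 18.4 in chow in GABAergic neurons, -1.31 (-1.69 to -0.94), and at 10.5 and 25.4 in glutamatergic neurons, -1.27 (-1.62 to -0.93). It was lower in 7 of 7 and 8 of 8 clusters, had -1.47 and -1.16 in rapamycin nuclei, and kept -1.21 and -1.19 with length taken off. Nap1l5, an imprinted histone chaperone gene of 1.89 kb inside Herc3, had -1.19 and -1.22, lower in 23 of 23 and 19 of 19 clusters. Morn2 had -1.36 and -1.33. Ptgds, a prostaglandin synthase abundant in oligodendrocytes and meninges, had 32 UMIs in DIO and 106 in chow GABAergic neurons, -1.61, and 17 and 97 in glutamatergic neurons, -2.46.

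Several of the highest ratios belong to genes that lie inside other genes. Csmd2os had 1.57 and 2.02 beside 0.43 and 0.52 for its host Csmd2, Grip1os1 1.60 and 1.26 beside 0.53 and 0.48 for Grip1, and Alas2, a gene of red blood cells, 1.20 in both classes beside 0.45 and 0.33 for Apex2. Of the genes higher by the fold in GABAergic neurons, 8.85% lie inside the span of another gene, against 2.23% of those lower by the fold and 2.62% of all. The strand used in counting is not given in the sources used here, so reads of such a gene and of its host cannot be told apart.

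Markers of some neuron types and other cells differed between the pools. In GABAergic neurons, 5 of 5 markers of tuberomammillary (histamine) neurons were higher in DIO, beside 45.9% of all genes. Their summed levels were 212 CPM in DIO and 104 in chow. Hdc, which makes histamine, stood at 87.7 and 34.2 CPM, a ratio of 1.36, but at 0.23 with equal cluster weights and -0.22 in rapamycin nuclei. The paraventricular and supraoptic markers were lower in 4 of 5 measured members in each class. By the fold 4 and 3 were lower, beside 21.1% and 21.6% of all genes. Their medians were -0.47 and -0.44, but -0.13 and 0.02 with length taken off. Their summed levels were 38.0 CPM in DIO and 46.5 in chow in GABAergic neurons and level, at 186.0 and 186.2 CPM, in glutamatergic neurons. The suprachiasmatic markers had medians of -0.34 and -0.36, or -0.16 and -0.25 with length taken off. The 8 astrocyte markers summed to 55.1 CPM in DIO and 31.5 in chow in GABAergic and to 41.7 and 39.8 in glutamatergic neurons, and none of them was at 0. The 8 oligodendrocyte markers summed to 54.3 and 63.1 and to 46.9 and 59.0 CPM, and the 8 microglial markers to 150 and 125 and to 154 and 133 CPM, with 2 and 1 of them at 0 in both pools. The 4 measured sex-linked genes were lower in DIO in both classes, 1 by the fold in each, beside 21.1% and 21.6% of all genes. Eif2s3y, on the Y chromosome, stood at 152 CPM in DIO and 264 in chow in GABAergic neurons. Its ratio there was -0.80 in vehicle and in rapamycin nuclei, and it was lower in 23 of 23 clusters. The part of these differences in the gene ratios above was not tested.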

How the data were processed

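Droplet libraries of nuclei from 2 hypothalamic pools, one from DIO and one from chow mice, were aligned to mm10 with Cell Ranger 6.0.0, per the submitters' processing notes. The deposited files hold whole-number counts of UMIs per gene and of hashtag reads per nucleus, not normalized, per the file headers and the values. The setting for strand is not given in the sources used here. From the deposited counts, tags were centred per pool as log2(count + 1), nuclei were assigned by the margin of 1, and counts were summed and scaled to CPM with Python 3.11.15 and scipy 1.17.1. Nuclei with neither tag ahead by the margin were left out, and no doublet caller was run. HTODemux in Seurat 5.3.0, which marked 649 DIO and 734 chow nuclei as doublets, was an alternative. Genes needed 100 UMIs over both sums. Clusters were made with leidenalg 0.10.2 and are not named here, and a gene was compared within a cluster where it had 20 UMIs. edgeR 4.0.16 was used for TMM scaling only. Gene spans were matched by symbol to RefSeq, for 23888 of 27998 genes. Length taken off means that the median ratio of all genes in the same of 10 equal groups by span was subtracted.

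The members and lists were chosen with earlier results of these data known. Genes were named if among the 10 highest or lowest ratios of a class (also at equal cluster weights), among the 3 highest or lowest of a list, or on a fixed list of feeding genes; other list members, host genes and cell type markers were named after their values were seen. The length adjustment and the search for the STAT letters were added after seeing the data. On counts simulated with counting error alone, the intervals held the true value for 94.8 to 95.7% of genes. Such counts follow the model behind the intervals, so this does not show coverage where nuclei or mice vary.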

Additional observations from a re-analysis of the deposited data

Results flagged for a closer look

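Cartpt went opposite ways in the 2 classes, with log2 ratios of DIO over chow of 0.72 in GABAergic and -0.35 in glutamatergic neurons, a gap of 1.08. The difference was not tested, and with equal cluster weights the GABAergic ratio was 0.05.

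Hcrt in glutamatergic neurons had a ratio of 0.67 in vehicle nuclei and -0.71 in rapamycin nuclei, a gap of 1.38, which was not tested. Lef1, a transcription factor of Wnt signalling, had 1.47 in vehicle and -0.69 in rapamycin glutamatergic neurons, a gap of 2.17, also not tested. At equal cluster weights the vehicle ratio of Lef1 was 0.07.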

How the results depend on the processing

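Each group is 1 hashtag in 1 pool, so variation between mice is not measured, and diet cannot be told apart from pool. No paired analysis was possible because each group is 1 sample with no replicate number. Across tag margin, HTODemux, class and depth minimums, removal of nuclei with other cell types' UMIs, TMM, equal nucleus or cluster weights and gene minimums, the share of genes past the fold ranged from 11.9% to 16.1% higher and 16.9% to 24.0% lower in GABAergic neurons, and from 12.1% to 17.0% and 16.4% to 24.5% in glutamatergic neurons. Taking gene length off changed most. Genes lower by the fold then made up 10.8% in GABAergic and 11.7% in glutamatergic neurons. Medians in GABAergic and glutamatergic neurons became -0.15 and -0.034 for oxidative phosphorylation, -0.029 and -0.056 for ribosomal proteins, 0.069 and 0.021 for heat shock, 0.15 and 0.18 for endoplasmic reticulum stress, -0.079 and -0.053 for metabotropic glutamate receptors, and -0.0018 and -0.038 for calcium, sodium and HCN channels. The median became -0.074 for synaptic adhesion in GABAergic neurons, and 0.017 for the proteasome and -0.062 for GABA and glycine receptors in glutamatergic neurons. In GABAergic neurons Dnajb9 became 0.012, Vamp2 0.013, Ddit3 0.054, Scg2 0.055 and Hspe1 0.069, and in glutamatergic neurons Avp 0.021. Without nuclei holding 2 UMIs of other cell types, Oxt became 1.01 and Errfi1 0.070 in glutamatergic neurons. This filter kept 437 of 1237 DIO and 607 of 1392 chow glutamatergic neurons. Among GABAergic neurons it kept 709 of 1670 in DIO and 1009 of 1878 in chow, so it cut the pools unequally. Hcrt in glutamatergic neurons became -0.17 with at least 2 class UMIs and -0.51 with equal cluster weights. The cause of these shifts was not tested. Depth limits the peptide and immediate-early genes most, since many had under 100 UMIs.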

Other observations

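The counting intervals of the 2 neuron classes lay apart for few genes. Overlap of these intervals does not show that the classes were alike, least of all for genes with few UMIs. Of 11451 genes measured in both, 350 had counting intervals of the ratio that lay apart, and 14 were past the fold in opposite directions with both intervals clear of 0. Hmcn1, an extracellular matrix gene, had -0.56 (-0.84 to -0.29) in GABAergic and 0.94 (0.66 to 1.23) in glutamatergic neurons. Maob, which breaks down monoamines and marks histamine neurons among others, had 0.84 and -0.45 (-1.05 to 0.13), but 0.14 and -0.21 at equal cluster weights. Kit, a receptor tyrosine kinase, had 0.64 and -0.48, but 0.27 and -0.18 at equal cluster weights and 0.15 and 0.28 in rapamycin nuclei. Meis1, a homeobox factor, had -0.28 (-0.70 to 0.13) and 0.91, and Hmcn1 and Meis1 had -0.36 and 0.38 and -0.23 and 0.48 at equal cluster weights. The 4 were picked with their values in view, and no difference between the classes was tested.

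Lipid synthesis and clock genes lay near all genes. Cholesterol and fatty acid synthesis had medians of -0.07 in GABAergic and -0.12 in glutamatergic neurons, with Fdps at -0.64 and -0.69 and Srebf2, the regulator of the pathway, at 0.33 and 0.30, and the medians were 0.10 and 0.04 with length taken off. Clock genes had medians of -0.03 and -0.05, or -0.00 and -0.03 with length taken off, with Bhlhe40 at -0.62 and -0.48 and Rora at 0.36 and 0.39.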
